A study of Mus musculus with 2 samples.

Results

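Type I interferon-stimulated genes were followed as a set of 33 named genes, all of which were found among the 26078 genes of the count matrices and reached the minimum level of 5 CPM in at least 1 cell class. CPM is the count of UMIs, the molecular tags that mark single captured transcripts, scaled to the same total in every class and library. The genes were chosen by name, as members of a known response, with earlier results of these data known. They were read in each class of cells recognised by its marker genes. The samples were liver macrophage preparations from 1 saline mouse and 1 Ter119 mouse, both C57BL/6J, 7 to 10 weeks old. Ter119 is an antibody against a surface antigen of mouse red cells. The treated mouse received it under the skin, once at 35 ug and then on 10 days at 10 ug, and the other mouse received saline in similar volume. The labels put the livers at 24 after the final injection, without a unit. Beads against F4/80 and CD11b antibodies enriched the non-parenchymal cells, which were hashtagged, pooled and sequenced from the 3′ ends of transcripts. Each group is 1 mouse and 1 library, so the treatment cannot be told apart from the mouse or the library, no test between groups was possible, and every 95% interval covers counting error only.

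Type I interferons bind the receptor pair IFNAR1 and IFNAR2, and the kinases JAK1 and TYK2 then signal to the complex ISGF3. It contains STAT2 and IRF9 and binds the interferon-stimulated response element (ISRE) in promoters of antiviral genes. Some target genes, such as Irf7, Stat2, Irf9 and the RNA sensors, are themselves parts of the pathway, and others, such as Usp18, restrain it. Macrophages keep a low level of this program at rest, and Kupffer cells, which are liver-resident macrophages, take up blood-borne material, aged red cells included.

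Promoter sequence was read first, because the ISRE ties many members to 1 transcription complex. RefSeq promoter windows (GRCm38.p6) were matched for 25 of 33 members. The windows used here hold the 250 bases before each start site. Those of Usp18, Oas2, Dhx58, Zbp1, Ly6e, Rtp4, Parp14 and Ifi27l2a were not used here. The ISRE core was searched as GAAA, any 2 bases and GAAA again, or as TTTC, any 2 bases and TTTC for the other strand, with overlapping matches counted. It was present in 11 of 25 members (44.0%) and in 3.46% of 27025 genes with a window. The gamma-activated site, searched as TTCNNNGAA, was present in 6 of 25 members (24.0%) and in 8.13% of genes. The 6 members with at least 2 ISRE matches are shown because they carry the element most plainly, 5′ to 3′ on the strand of the gene, with matched bases in capitals.
Isg15 (chr4:156200855-156200916, minus strand): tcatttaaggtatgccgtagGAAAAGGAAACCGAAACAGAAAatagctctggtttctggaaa
Ifit1 (chr19:34640765-34640833, plus strand): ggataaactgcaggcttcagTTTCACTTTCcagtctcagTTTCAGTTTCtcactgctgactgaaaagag
Ifit3 (chr19:34583353-34583436, plus strand): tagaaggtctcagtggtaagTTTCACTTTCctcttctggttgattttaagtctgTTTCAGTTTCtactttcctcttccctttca
Ifit3b (chr19:34607749-34607832, plus strand): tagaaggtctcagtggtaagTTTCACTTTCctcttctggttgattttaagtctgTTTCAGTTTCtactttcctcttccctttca
Oas1a (chr5:120907526-120907565, minus strand): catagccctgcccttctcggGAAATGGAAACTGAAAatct
Bst2 (chr8:71537567-71537622, minus strand): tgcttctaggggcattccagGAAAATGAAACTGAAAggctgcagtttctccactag

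Isg15 held 3 overlapping matches, and the stretches of Ifit3 and Ifit3b were letter for letter the same. A match describes letters in a window, and none of these sites was measured in the study. Stat2, Oas3, Rsad2, Ifi203 and Trim30a held 1 match each. No match was found in the windows of Irf7, Irf9, Oasl1, Oasl2, Ifih1, Ddx58, Ifitm3, Ifi44, Ifi35, Xaf1, Ifit2, Irf1, Eif2ak2 or Isg20.

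The libraries differed in depth and make-up. The saline matrix held 18354 barcodes and 97181787 UMIs, and the Ter119 matrix 25760 barcodes and 61892074 UMIs. After filtering, 11572 and 13846 cells remained, and 133 barcode sequences occurred in both matrices. Kupffer-like cells, gated by Clec4f, Vsig4, Cd5l, Timd4, Marco and other Kupffer markers, numbered 9574 in saline (median 6822 UMIs) and 5860 in Ter119 (median 3506 UMIs). Their 10 markers summed to 33917 and 22995 CPM, and Cd5l, Vsig4, Fcna, Clec4f and C1qa were among their 10 leading genes in both. All of these are genes of the gate, so their rank follows from the selection. Slc40a1 and Lpl, which the gate did not use, were also among the 10 leading genes in both. The single markers differed widely between the libraries, so the class was not alike in both. Timd4 was 22.4 times lower in Ter119, Folr2 6.15, Clec4f 5.17 and Vsig4 4.75 times lower, while Marco was 5.19 times higher (843 and 4379 CPM). Their hepatocyte RNA stood at 3351 CPM over 10 marker genes in saline and at 900 CPM in Ter119, and their red cell marker RNA at 46.8 and 18269 CPM. Neutrophil markers stood at 154 and 405 CPM. The part of these differences in the results below was not tested.

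In Kupffer-like cells of the saline mouse the program was broadly detectable. The summed level of the 33 members was 11176 CPM. Ly6e, Ifitm3 and Ifi27l2a made up most of it, at 2691, 1985 and 1964 CPM. Irf7 followed at 728 CPM and Bst2 at 502 CPM, and Isg20, at 6.42 CPM, was the lowest member. In the Ter119 mouse the sum was 5346 CPM. Of 33 members, 31 had a lower level there than in saline, 12 were at least 2-fold lower and 0 higher by that margin. The members' median log2 ratio of Ter119 over saline was -0.80, against -0.21 over 6437 genes with at least 20 CPM. Among those 6437 genes, 8.76% were lower by 2-fold or more and 3.76% higher by as much. Among the 32 members with at least 20 CPM, 37.5% were at least 2-fold lower.

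The size of this difference depended on the scale. With TMM factors, which centre the 2 libraries on their typical gene, the median of all genes moved from -0.21 to 0.02. The members' median was then -0.57, and 6 members were at least 2-fold lower (5.45% of all genes) and 0 higher (5.65%). Median-of-ratios factors also gave 6 lower (5.28%) and 0 higher (5.75%), with a median of -0.55. These 6 were Irf7, Ifi27l2a, Oas2, Oasl1, Oasl2 and Usp18. Ifi35 alone changed sign under both factors. Relative to the all-gene median, the members' median stood at -0.59 on the CPM scale.

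**Figure D1:**
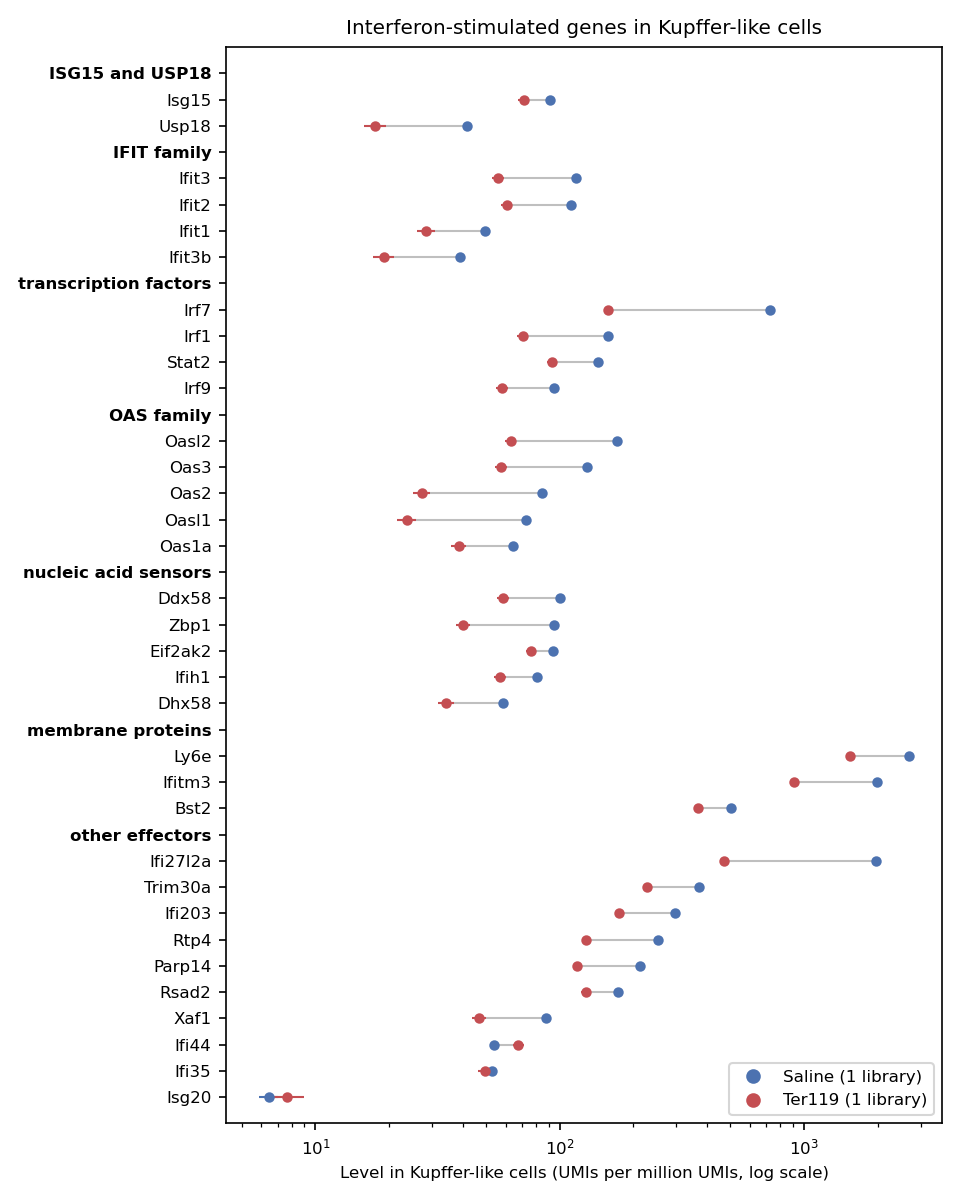
Level of each member in Kupffer-like cells (CPM, log axis), grouped by role, with saline in blue and Ter119 in red. Points are single libraries and bars are exact Poisson 95% intervals of the counts. All members except Ifi44 and Isg20 lie further left in Ter119, with the widest gaps at Irf7 (728 and 158) and Ifi27l2a (1964 and 472).

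Among the transcription factors of the pathway, Irf7 differed most. IRF7 drives the amplification of interferon-alpha genes and is itself interferon-induced. Irf7 (chromosome 7, 141262706 to 141266481, minus strand) stood at 728 CPM in saline against 158 in Ter119, a level 4.62 times lower (4.46 to 4.78). A UMI of Irf7 was seen in 89.9% of saline and 39.3% of Ter119 cells, shares that also follow depth. Irf1, a factor shared with the interferon-gamma response, had 157 and 70.6 CPM and was 2.22 times lower (2.11 to 2.35). The ISGF3 subunits differed less. Stat2 had 143 and 92.9 CPM (ratio 0.648, 0.617 to 0.681) and Irf9 had 95.03 and 58.1 CPM (ratio 0.612, 0.575 to 0.650).

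The OAS family makes or resembles the enzymes that sense double-stranded RNA and signal to RNase L. Of its 5 members, 4 were at least 2-fold lower (8.76% of all genes), the highest share of any role with more than 2 members. With TMM or median-of-ratios factors, Oas2, Oasl1 and Oasl2 stayed past 2-fold and Oas3 did not. Oas2 stood at 84.9 CPM in saline against 27.2 in Ter119 and was 3.12 times lower (2.86 to 3.41). Oasl1, which lacks the enzyme's activity and restrains Irf7 translation, had 72.9 and 23.6 CPM and was 3.09 times lower (2.81 to 3.39). Oasl2 had 172 and 63.0 CPM, and Oas3 had 130 and 57.4 CPM. Oas1a was the exception, with 64.5 and 38.5 CPM, but 56.1% of the 50-base words in the last 500 bases of its transcript also occur in Oas1g, so its count is uncertain.

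Isg15 and Usp18 belong to the ubiquitin-like ISG15 system, in which ISG15 is joined to proteins and USP18 removes it and blocks the receptor. Isg15 stood at 91.6 CPM in saline against 71.1 in Ter119, a ratio of 0.777 (0.734 to 0.822). Usp18 had 41.9 and 17.5 CPM and was 2.39 times lower (2.14 to 2.67). The pair thus differed unequally, and their intervals do not overlap. The IFIT proteins bind viral RNA. Ifit3 had 116 and 55.9 CPM, Ifit3b 39.2 and 19.1 CPM, Ifit2 111 and 60.6 CPM, and Ifit1 49.6 and 28.4 CPM. Their ratios lay close together, from 0.480 for Ifit3 to 0.573 for Ifit1, and Ifit3 shares 14.9% of its 3′ words with Ifit3b.

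The cytosolic sensors were lower by smaller margins, with 1 exception. Zbp1, a sensor of Z-form nucleic acid that can start necroptosis, stood at 94.5 CPM in saline against 40.3 in Ter119 and was 2.35 times lower (2.18 to 2.52). Ddx58, which encodes RIG-I, had 99.8 and 58.8 CPM, and its relative Dhx58 had 58.5 and 34.3 CPM. Ifih1, which encodes MDA5, had 81.1 and 57.1 CPM. Eif2ak2, the kinase PKR that halts translation, had 93.6 and 76.2 CPM and a ratio of 0.814 (0.771 to 0.860), which is -0.08 from the all-gene median on the log2 scale.

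Of the membrane proteins, Ifitm3, which blocks virus entry, had 1985 and 908 CPM and was 2.19 times lower (2.15 to 2.22). Ly6e had 2691 and 1541 CPM, and Bst2, the tetherin that holds budding virus, had 502 and 368 CPM. Ifi27l2a was the effector with the widest gap, with 1964 and 472 CPM, 4.16 times lower (4.07 to 4.24). The other effectors lower in Ter119 were Rtp4 (252 and 128 CPM), Xaf1 (88.0 and 46.7 CPM), Parp14 (214 and 118 CPM), Ifi203 (297 and 175 CPM), Trim30a (371 and 228 CPM) and Rsad2 (174 and 128 CPM). Rtp4, at 1.97 times lower, lay just outside the 2-fold limit, and Ifit3b, at 2.05 times lower, just inside it. Ifi35 had 52.7 and 49.2 CPM, a ratio of 0.933 whose interval reached 1.00. Only Ifi44 and Isg20 were higher in Ter119, Ifi44 at 54.0 and 67.7 CPM (ratio 1.255, 1.18 to 1.33) and Isg20 at 6.42 and 7.66 CPM (ratio 1.19, 0.991 to 1.43).

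Gene models of Ifi203 and Irf9 overlap those of Mndal and Rnf31 on the same strand, and Irf1, Irf7 and Rtp4 overlap protein-coding genes on the opposite strand. The sources used here do not say how counting treated overlapping genes, and the part of such overlap in these 5 counts was not tested. The median log2 ratio in Kupffer-like cells was -0.74 for the 11 members with an ISRE match in the window, -0.82 for the 14 without and -1.10 for the 8 with no window.

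Genes around the members were read from lists by pathway role. Of 21 interferon ligand genes, 0 reached 5 CPM in Kupffer-like cells of either library. All 9 measured receptors and kinases were lower in Ter119, with a median log2 ratio of -0.55. Ifngr1, the ligand-binding chain of the interferon-gamma receptor, had 535 and 282 CPM, and Ifnar2 had 264 and 162 CPM. Among 15 genes of sensing and induction, 1 was at least 2-fold lower, Unc93b1, the chaperone of nucleic acid-sensing Toll-like receptors, with 829 and 371 CPM. Irf8, a macrophage lineage factor, had 323 and 341 CPM, and Irf5 had 157 and 86.9 CPM. Of 9 negative regulators, 1 was at least 2-fold higher, Rnaseh2b, with 18.7 and 50.7 CPM. Samhd1 had 554 and 380 CPM, Ptpn6 305 and 239 CPM, and Pias1 145 and 75.7 CPM.

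A list of 30 further interferon targets, which shares no gene with the 33 members, was read beside them. Like the members, it was chosen with earlier results of these data known, so it is not an independent check. It holds Mndal, whose gene model overlaps that of the member Ifi203. In Kupffer-like cells 12 of the 30 targets were at least 2-fold lower and 0 higher, with a median log2 ratio of -0.83. Among the 29 with at least 20 CPM, 11 were lower by that margin (37.9%) and 0 higher, against 8.76% and 3.76% of all genes. Lgals3bp had 587 and 489 CPM, Ifi204 526 and 259 CPM, and Slfn5 426 and 191 CPM. The list and the members lay further apart in neutrophil-like cells (medians of -1.24 and -2.02) and in conventional dendritic-like cells (-0.04 and -0.38). They lay close together in classical monocyte-like cells (-0.50 and -0.51), endothelial-like cells (-0.02 and -0.01) and non-classical monocyte-like cells (-0.36 and -0.30). Genes that lean to interferon gamma had a median of -0.42 over 8 measured genes in Kupffer-like cells, 1 of them at least 2-fold lower and 0 higher. That gene, the guanylate-binding protein gene Gbp2b, stood at 266 CPM in saline against 3.05 in Ter119. Gbp2b was also lower in Ter119 in the 5 other classes compared, at 0 of 1683719 UMIs in endothelial-like cells against 34.7 CPM in saline. Free RNA of Kupffer cells reached these classes, as given below. In saline endothelial-like cells, Kupffer tracer genes stood at 10.1% or more of their Kupffer level. The part of free RNA in the saline levels of Gbp2b outside Kupffer-like cells was not tested. Whether Gbp2b differs between the mice apart from the treatment was not tested and cannot be told apart here. Its list fellows Iigp1 (170 and 125 CPM) and Gbp2 (97.9 and 164 CPM) differed far less in Kupffer-like cells. In some other classes the same list had lower medians than the members, at -1.38 against -0.51 in classical monocyte-like cells, -2.75 against -2.02 in neutrophil-like cells and -0.58 against -0.30 in non-classical monocyte-like cells.

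Across cell classes, Kupffer-like cells were rarely the highest. In saline, 15 members were highest in neutrophil-like cells, 11 in classical monocyte-like, 4 in Kupffer-like and 3 in endothelial-like cells. The 4 were Irf7, Ly6e, Stat2 and Eif2ak2. For 14 of 33 members, Stat2, Eif2ak2, Usp18 and Oas2 among them, the interval of the highest class overlapped that of the next. Irf7, at 728 CPM, stood 2.44 times above classical monocyte-like cells, the next class. In Ter119, 15 members were highest in classical monocyte-like cells, 11 in endothelial-like, 3 in Kupffer-like, 2 in non-classical monocyte-like, 1 (Irf1) in T-like or NK-like and 1 (Isg20) in erythroid-like cells, with overlap to the next class for 22 of 33. Irf7 was then 189 CPM in classical monocyte-like and 158 CPM in Kupffer-like cells, with overlapping intervals. Free RNA of Kupffer cells reached the other classes, and it was not subtracted from the levels and ratios given unless stated. Carry-over was read from 6 Kupffer tracer genes in saline and 4 in Ter119. The tracer with the lowest carry-over stood in the other classes at 5.49% to 14.3% of its Kupffer level in saline, and at 8.06% to 20.9% in Ter119. This lowest tracer was not the same gene in every class and library. The highest tracer, Hpgd, reached 42.9% in saline endothelial-like cells and 75.9% in Ter119 non-classical monocyte-like cells. Whether these classes express Hpgd themselves was not tested.

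**Figure D2:**
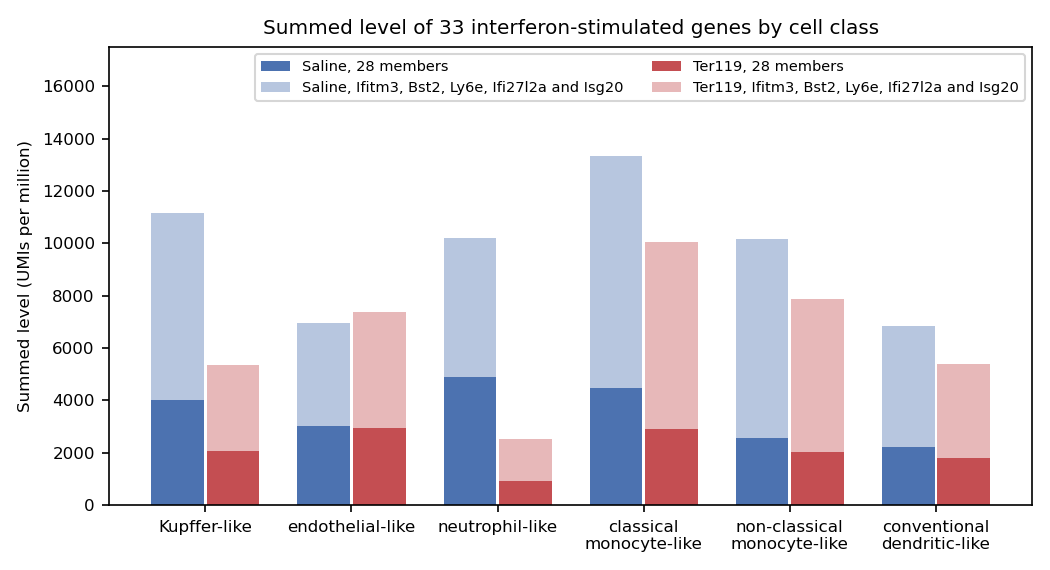
Summed level of the 33 members (CPM) in 6 cell classes, saline in blue and Ter119 in red, 1 library each. The dark part is the sum of 28 members and the pale part the 5 members Ifitm3, Bst2, Ly6e, Ifi27l2a and Isg20. The sum is lower in Ter119 in every class drawn except endothelial-like cells (6939 and 7391).

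Endothelial-like cells, 635 in saline and 1082 in Ter119, showed no lower level as a group. The members' median log2 ratio was -0.01, against -0.13 over all genes, 17 of 33 members lay below 1, and 1 was at least 2-fold lower (3.82% of all genes) and 0 higher (3.49%). That sign is not stable, since the median turned to 0.11 with TMM factors. Ifitm3 led the class and was higher in Ter119, with 1939 and 2485 CPM (ratio 1.28, 1.23 to 1.34). Bst2 had 910 and 886 CPM, and Ly6e 758 and 808 CPM. Isg15 was also higher, at 123 and 162 CPM (ratio 1.31, 1.11 to 1.56). The gene past 2-fold was Oas2, with 46 UMIs in saline and 12 in Ter119. Zbp1 was nearest to 2-fold higher, with 47 and 63 UMIs (ratio 1.90, 1.28 to 2.84). These levels were close to the free RNA. At the lowest tracer's carry-over, free Kupffer RNA equals 44.4% of the saline and 78.8% of the Ter119 level of Oas2, and 48.4% and 22.3% of that of Zbp1. With it subtracted, Zbp1 stood at 10.1 and 29.1 CPM, past 2-fold, and Oas2 at 10.7 and 1.51 CPM. The highest tracer, Hpgd, stood at 42.9% of its Kupffer level in saline endothelial-like cells and at 63.7% in Ter119. At such a carry-over less of these levels would remain, and subtraction at it was not run. The subtracted levels thus hold for the lowest tracer only, which was Cd163 in saline and Paqr9 in Ter119.

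Neutrophil-like cells had the widest gap. Of 33 members, 23 were at least 2-fold lower in Ter119 (29.5% of all genes) and 0 higher (12.6%), with a median log2 ratio of -2.02 against -0.38 over all genes. Ifi27l2a had 2178 and 218 CPM, Ifitm3 1713 and 964 CPM, and Ly6e 1177 and 315 CPM. The levels and ratios of this class include free Kupffer RNA. Its lowest tracer stood at 14.3% of the Kupffer level in saline neutrophil-like cells and at 12.0% in Ter119. The widest ratios were those of Ifit3b, on 54 and 3 UMIs, and Oasl1, on 50 and 4 UMIs, followed by Ifit1, Rsad2, Oasl2 and Rtp4. Ifit1 stood at 191 and 7.41 CPM, 25.8 times lower in Ter119. Rsad2 stood at 437 and 27.99 CPM, and Oasl2 at 610 and 46.9 CPM. Over neutrophil-like cells thinned to 1000 UMIs, the variance of the 28-member sum over its mean was 6.03 in saline and 1.71 in Ter119. The means were 5.01 and 1.02 UMIs. Variance over mean can rise with the mean, so these values do not compare the spread on a like scale. The cells of the 2 libraries also differed in stage. The secondary granule genes Ngp, Camp and Ltf, made by immature neutrophils, stood at 304, 1520 and 17.7 CPM in saline and at 29903, 38391 and 7007 CPM in Ter119. Only 63 of 530 Ter119 cells, against 224 of 227 saline cells, had under 50 UMIs of these genes per 10000. Among those cells the members' median was -0.89, a comparison added after the values were seen. The part of stage in the other ratios was not tested.

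Classical monocyte-like cells were lower in all 33 members, by less. The median log2 ratio was -0.51 against -0.07, and 2 members, Dhx58 and Ifih1, were at least 2-fold lower (6.7% of all genes) and 0 higher (4.91%). Ifitm3 had 3534 and 3319 CPM, Ifi27l2a 2738 and 1835 CPM, and Ly6e 2157 and 1664 CPM. Isg15 had 474 and 248 CPM. The Ter119 cells carried Elane at 549 CPM and Mpo at 178 CPM, genes of granulocyte and monocyte progenitors, against 1.88 CPM and 0 of 1065208 UMIs in saline. The part of that in the ratios was not tested.

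Non-classical monocyte-like cells had a median of -0.30 against -0.11, with 0 members at least 2-fold lower (5.42% of all genes) and 0 higher (3.81%). Irf7, at 247 and 136 CPM (ratio 0.551, 0.433 to 0.697), was the member with the lowest upper bound. Ifitm3 had 2944 and 2635 CPM, Ly6e 2375 and 1577 CPM, and Ifi27l2a 2045 and 1344 CPM. Conventional dendritic-like cells had a median of -0.38 against -0.06, with 2 members, Oas2 and Isg20, at least 2-fold lower (5.78%) and 0 higher (3.53%). Oas2 rested there on 22 and 3 UMIs (ratio 0.272, 0.0521 to 0.904). Ifitm3 had 1798 and 1378 CPM, Ly6e 1480 and 1353 CPM, and Ifi27l2a 1030 and 624 CPM. The ratios were not tested between classes. Lymphoid cells were too few in 1 of the libraries to compare, at 70 and 43 B-like cells, while T-like or NK-like cells numbered 25 and 114. Ly6e and Ifi27l2a led in B-like cells, at 2145 and 1297 CPM in saline and at 1425 and 612 CPM in Ter119, followed by Ifi203 at 329 and 317 CPM. In T-like or NK-like cells, Ly6e, Ifitm3 and Ifi27l2a led, at 1200, 783 and 1415 CPM in saline and at 812, 708 and 605 CPM in Ter119.

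**Figure D3:**
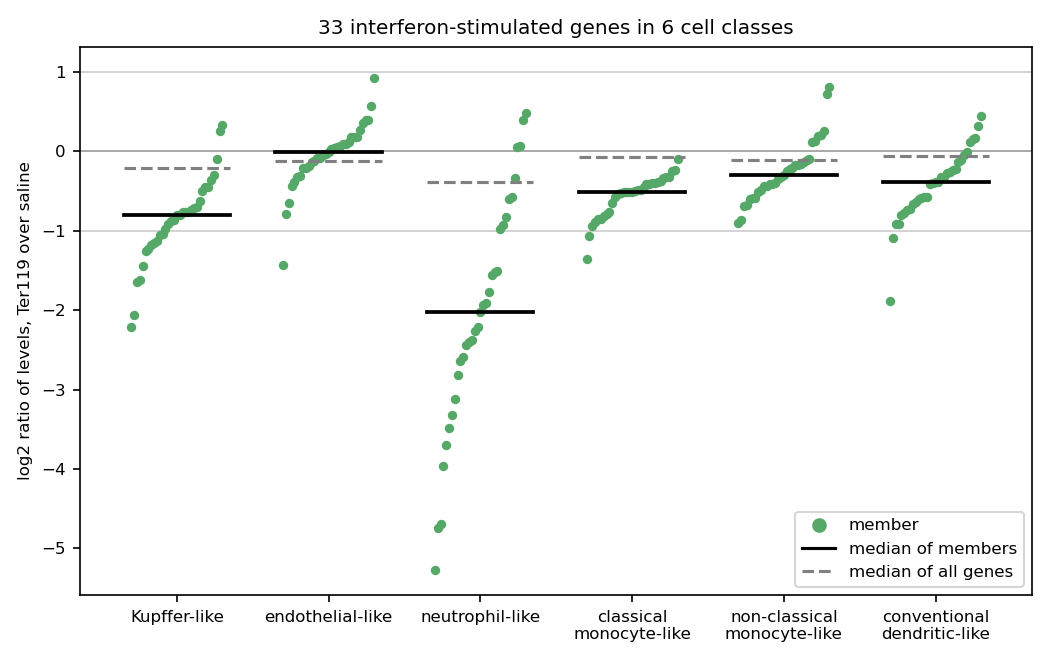
Log2 ratio of Ter119 over saline for each of the 33 members (green points, ordered by value within a class) in 6 cell classes, with the members' median (black line) and the median of all genes with at least 20 CPM (dashed grey). The median is lowest in neutrophil-like cells (-2.02), next in Kupffer-like cells (-0.80), and -0.01 in endothelial-like cells.

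Kupffer-gated cells rich in hemoglobin were read apart. Beside the 5860 Kupffer-like cells, 2324 Ter119 cells passed the gate but held at least 1000 hemoglobin UMIs per 10000. They were not named or compared between groups, since 5 of their 10 leading genes mark red cells and saline had 4 such cells. With hemoglobin UMIs left out of the totals, the members' median log2 ratio of these cells over the other Kupffer-gated cells was 0.01, and 16 of 33 lay below 1. Isg20, an exonuclease that degrades single-stranded RNA, was the 1 member at least 2-fold higher (0.398% of all genes), at 7.81 and 61.8 CPM, and 0 were lower (0%). Rsad2 (130 and 180 CPM, ratio 1.39, 1.30 to 1.48) and Isg15 (72.4 and 90.7 CPM, ratio 1.25, 1.14 to 1.37) were also higher in the hemoglobin-rich cells, by less. Isg20 was highest in Ter119 erythroid-like cells, at 140 CPM. The members with the highest levels there were Ifitm3 (677 CPM), Ly6e (515 CPM) and Ifi27l2a (347 CPM), followed by Rsad2 (185 CPM) and Isg15 (149 CPM). The part of red cell RNA in the levels of Isg20, Rsad2 and Isg15 in the hemoglobin-rich cells was not tested.

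Over single Kupffer-like cells, each thinned to 1000 UMIs, the members were spread widely rather than held by a few cells. At least 5 member UMIs were found in 95.9% of saline cells (95.5 to 96.3%) and in 57.0% of Ter119 cells (55.7 to 58.2%). Ifitm3, Bst2, Ly6e, Ifi27l2a and Isg20 are also expressed by many resting cell types. Without these 5, the other 28 members had a mean of 3.99 UMIs per saline cell and 2.07 per Ter119 cell. At least 5 UMIs of the 28 were then found in 36.3% and 7.61% of cells, and at least 3 in 71.1% and 32.4%. Not thinned, the shares with at least 3 UMIs were 97.5% and 82.7%. No UMI of the 28 was found in 3.09% of saline and 15.6% of Ter119 cells. The variance of the sum over its mean, which is 1 for pure counting noise, was 1.49 in saline and 1.72 in Ter119.

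**Figure D4:**
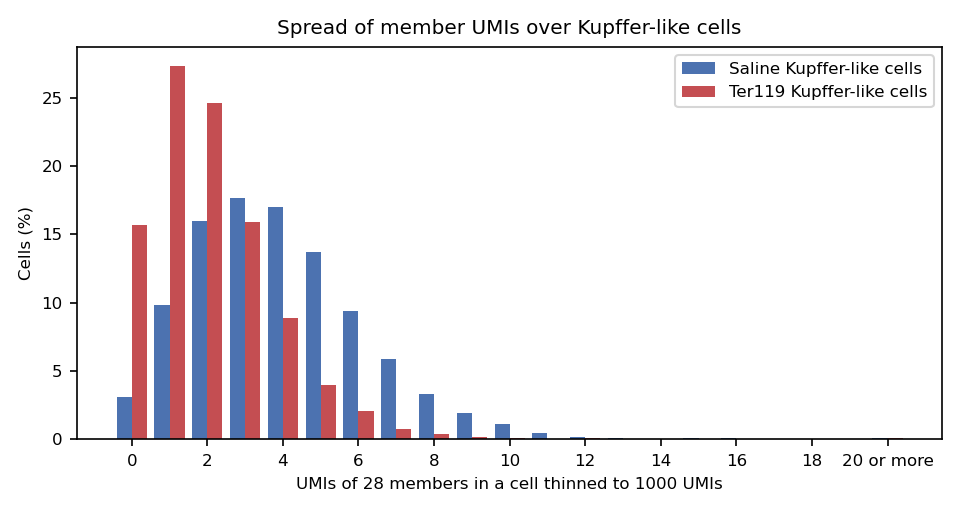
Share of Kupffer-like cells (%) by the number of UMIs of 28 members in a cell thinned to 1000 UMIs, saline in blue (9574 cells) and Ter119 in red (5860 cells). Both distributions have 1 peak, and the means are 3.99 and 2.07 UMIs.

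A small number of cells held much more. At least 10 UMIs of the 28 members were found in 208 saline cells (2.17%, 1.89 to 2.48%) and in 20 Ter119 cells (0.341%, 0.209 to 0.527%). The single members with the highest variance over mean in saline were Ifi27l2a (1.58), Ifitm3 (1.504), Rsad2 (1.38), Isg15 (1.21) and Ly6e (1.16). In Ter119 they were Rsad2 (2.11), Ifit1 (1.76), Ifi27l2a (1.34), Ifitm3 (1.23) and Isg15 (1.23). Variance over mean can rise with a member's level as well as with its spread. Rsad2, which encodes the antiviral enzyme viperin, reached 19 UMIs in a single thinned Ter119 cell. Across pairs of members the correlation of UMIs over cells was weak, with a median Pearson r of 0.01 in both libraries (9574 and 5860 cells, 528 pairs, depth held equal by thinning). Ifit1 and Rsad2 had the highest value in Ter119, r = 0.409, with a Spearman rho of 0.066, so it rested on few cells.

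Cells with Cxcl10, a chemokine gene that interferons and other inflammatory signals induce, carried more of the set, and in Ter119 by a wide margin. In Ter119, 41 cells had at least 3 Cxcl10 UMIs, and in these 17 of 33 members were at least 2-fold higher than in the other Kupffer-like cells (7.82% of all genes) and 0 lower (6.6%). They had a median log2 ratio of 1.01. Ifit1 stood at 305 CPM against 25.9, Rsad2 at 1050 against 119, Isg15 at 479 against 67.5 and Oasl1 at 196 against 22.1. Irf7 was nearer, at 277 against 157 CPM. In saline, 351 cells had at least 3 Cxcl10 UMIs, and 1 member, Rsad2 at 362 against 163 CPM, was at least 2-fold higher (1.22%) and 0 lower (0.0156%). The median was 0.19. The cells with at least 3 Cxcl10 UMIs were deeper, at a median of 4205 UMIs (others 3501) in Ter119 and 11156 (others 6680) in saline. Cells within a library are not replicates, and the threshold of 3 UMIs favours deep cells, so these values describe the libraries.

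Other splits of Kupffer-like cells moved the set little. Cells with at most 5% mitochondrial UMIs had a median log2 ratio over the rest of 0.13 in saline and 0.04 in Ter119, and cells with at least 3 UMIs of cell cycle genes had -0.10 in both. Cells with at least 3000 UMIs had 0.06 and -0.06 against shallower ones. Ter119 cells with a UMI of Gpnmb, a gene of lipid- and debris-laden macrophages, had -0.19 against those without. Cells with a Gpnmb UMI were deeper, at a median of 4090 UMIs against 2335. As with Cxcl10, the rules on Gpnmb and cell cycle UMIs favour deep cells.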

How the data were processed

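For each mouse the authors deposited UMI counts by gene and barcode, not normalised. Per the file headers these came from Cell Ranger 6.0.2. Cell Ranger 4.0.0, Seurat 3.2.3, Scanpy 1.7.0 and GRCm38.p6 are named in the submitters' processing notes. The sources used here do not say how hashtags separated the mice. Barcodes were kept with at least 1000 UMIs, 500 genes and at most 15% mitochondrial UMIs. Scrublet called 0 and 1 cells, so doublets were in effect not removed. Cells were classed by marker UMIs per 10000 (Kupffer-like from 100, with under 30 endothelial). These thresholds were set after marker scores were seen. From 90 to 100 lay 58 saline and 315 Ter119 cells, and from 100 to 110 lay 41 and 345. Members and gene lists were chosen with earlier results of these data known. Counts were summed per class and library as CPM, with exact Poisson, conditional binomial and Clopper-Pearson 95% intervals, and called by a 2-fold size rule. All members were named, and the 3 highest in each other class and up to 3 in each list. The ratio and its rule were tested on simulated data. Tools were python 3.11.15, scanpy 1.11.5, numpy 2.4.6, scipy 1.17.1 and, for TMM factors only, edgeR 4.0.16. Gene positions are those of GENCODE on GRCm38. With 1 library per group, p-values were not computed. The values of 1 gene are not reported here.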

Additional observations from a re-analysis of the deposited data

Results flagged for a closer look

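For 5 members the counting intervals of the ratio of Ter119 over saline lay above 1 in endothelial-like cells and below 1 in other classes, and these differences were not tested. Zbp1 was higher in endothelial-like cells by a log2 difference of 2.16 from Kupffer-like, 2.95 from neutrophil-like, 1.46 from classical monocyte-like, 1.44 from non-classical monocyte-like and 1.53 from conventional dendritic-like cells. At the lowest tracer's carry-over, free Kupffer RNA equals 48.4% of the saline and 22.3% of the Ter119 level of Zbp1 in endothelial-like cells. For Ifitm3 the differences in the same order were 1.49, 1.19, 0.45, 0.52 and 0.74. For Isg15 the endothelial-like log2 ratio was above the Kupffer-like by 0.76, the neutrophil-like by 3.21, the classical monocyte-like by 1.33 and the conventional dendritic-like by 0.96. For Ifit2 it was above the Kupffer-like by 1.15 and the classical monocyte-like by 1.03, and for Eif2ak2 above the Kupffer-like by 0.69.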

How the results depend on the processing

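No paired analysis was possible because each group has 1 sample, and for the same reason no replicate could be left out. The Kupffer-like median log2 ratio of -0.80 was -0.57 with TMM and -0.55 with median-of-ratios factors, where the count of members at least 2-fold lower was 6 each in place of 12. It was -0.94 with hemoglobin-rich Kupffer-gated cells included, a setting added after the data were seen, in which 1 member (Isg20) was at least 2-fold higher. In the other 9 settings run it lay between -0.79 and -0.89, with 12 or 13 members lower and 0 higher. The endothelial-like median of -0.01 was 0.11 with TMM, 0.11 with median-of-ratios factors, 0.053 from 2000 UMIs per cell, 0.055 with at most 5% mitochondrial UMIs and 0.031 with members from 20 CPM. The neutrophil-like median was -0.89 in cells low in Ngp, Camp and Ltf. The share of cells with at least 5 member UMIs, 95.9% in saline and 57.0% in Ter119, was 99.95% and 94.8% when thinned to 2000 UMIs, 99.8% and 94.0% not thinned, 36.3% and 7.61% without Ifitm3, Bst2, Ly6e, Ifi27l2a and Isg20, and 97.2% and 60.1% with at most 5% mitochondrial UMIs. It was 54.95% in Ter119 with classes taken from clusters, which gave no neutrophil-like, classical monocyte-like or dendritic-like class to compare. The cause of these shifts was not tested.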

Other observations

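Erythroid-like cells of the Ter119 library, which are nucleated or young red cells and had no counterpart among 11572 saline cells, held member transcripts unevenly. In the 40 of them with cell cycle transcripts, Isg15 stood at 594 CPM, against 115 CPM in the other 789. Rsad2 stood at 412 and 167 CPM, and Isg20 at 230 and 133 CPM. Other members lay the other way, with Ifitm3 at 450 and 695 CPM and Ifi27l2a at 220 and 357 CPM. In the Kupffer-like cells with at least 10 UMIs of the 28 members, Cxcl10 led the genes outside the set, at 469 CPM against 52.2 in the other saline cells and at 1149 CPM against 19.9 in the other Ter119 cells. These cells were picked by the members' own counts, so the values are a description. In the 20 Ter119 cells, S100a4 (227 against 24.4 CPM) and Plac8 (550 against 97.6 CPM) were also higher. Both were among the leading genes of Ter119 non-classical monocyte-like cells. Doublets were in effect not removed, and whether these barcodes mix cell types was not tested.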
